A study of Mus musculus with 7 samples.

Results

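Among 100676 barcodes kept from 7 droplet RNA libraries of mouse liver, 88 (0.0874%) carried the transcripts of megakaryocytes and platelets, and these 88 barcodes, called members here, are the cells described. Members were chosen by their measured counts of 5 platelet genes. A member had at least 4 unique molecular identifiers (UMIs, one per captured RNA molecule) of Itga2b, Gp9, Gp1bb, Ppbp and Gp6 together, and these made up at least 0.15% of its base UMIs. The base was all UMIs of genes other than mitochondrial (mt-) and haemoglobin (Hba-, Hbb-) genes. Kept barcodes had over 1000 UMIs and at most 20% mt- UMIs. A barcode stands for a droplet, which can hold 1 cell, a cell with an attached platelet or free RNA.

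Every library was labelled as liver of a murine hepatoblastoma model, and the labels put 0 of the 7 libraries in a group. The study describes ABC-Myc mice on a C57BL/6J background, which carry an Alb-Cre transgene (Cre under the albumin promoter, active in hepatocytes) and a CAG-MYC allele whose human MYC is switched on by Cre, and in it NEJ723, NEJ709, NEJ687 and NEJ634 are tumors and the other 3 are healthy livers of mice that lack 1 or both alleles. For the tumor, the study describes perfusion of the mouse with buffer and then with collagenase, digestion, strainers and washes, and names no cell sort. The description of NEJ709 carries the name NEJ634. Values are therefore given for each library, libraries are not replicates of a group, and no p-value was computed. Intervals in parentheses are exact 95% intervals (Clopper-Pearson for shares, Poisson for levels, conditional binomial for ratios) and cover counting error only. Where 0 barcodes were found, the upper limit given is that of 3 counts.

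Megakaryocytes are large polyploid cells that bud platelets into the blood, and they form from stem cells and from a precursor shared with the erythroid lineage under thrombopoietin, a hormone made by hepatocytes. Platelets have no nucleus and live on RNA and protein handed down by the megakaryocyte, so nuclear RNAs such as Malat1 mark the megakaryocyte and not the platelet. The fetal and neonatal liver makes blood cells, megakaryocytes among them, and platelets also stick to leukocytes and to vessel walls.

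Itga2b encodes the alpha chain of the fibrinogen receptor, Gp9 and Gp1bb encode subunits of the von Willebrand factor receptor, Gp6 is the collagen receptor, and Ppbp is a chemokine stored in alpha granules together with Pf4. Their promoters are known to be served by GATA and ETS family factors, and the windows of Itga2b, Gp9 and Ppbp, the leading markers, and of Pf4 are shown because their transcripts weigh much in the description that follows. The windows run from 250 bases before to 50 bases after the start site (RefSeq, GRCm38.p6), 5′ to 3′ on the gene's strand, and capitals mark AGGAAG or CGGAAG (the ETS words) and AGATAA or TGATAA (the GATA words), searched on both strands. The Itga2b window lies on the minus strand at chr11:102469834-102470133, Gp9 on the plus strand at chr6:87777820-87778119, Ppbp on the plus strand at chr5:90768268-90768567 and Pf4 on the plus strand at chr5:90772185-90772484.
Itga2b: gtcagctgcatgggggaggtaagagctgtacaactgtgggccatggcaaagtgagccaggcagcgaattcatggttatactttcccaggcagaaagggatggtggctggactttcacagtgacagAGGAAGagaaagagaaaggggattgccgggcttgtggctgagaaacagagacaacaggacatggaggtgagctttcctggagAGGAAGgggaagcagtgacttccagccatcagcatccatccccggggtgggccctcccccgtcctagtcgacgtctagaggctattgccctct
Gp9: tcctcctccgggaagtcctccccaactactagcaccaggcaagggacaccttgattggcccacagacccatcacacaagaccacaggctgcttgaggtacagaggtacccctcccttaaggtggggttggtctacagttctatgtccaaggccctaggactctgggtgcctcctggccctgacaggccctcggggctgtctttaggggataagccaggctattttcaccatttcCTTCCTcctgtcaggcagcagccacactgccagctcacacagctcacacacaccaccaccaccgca
Ppbp: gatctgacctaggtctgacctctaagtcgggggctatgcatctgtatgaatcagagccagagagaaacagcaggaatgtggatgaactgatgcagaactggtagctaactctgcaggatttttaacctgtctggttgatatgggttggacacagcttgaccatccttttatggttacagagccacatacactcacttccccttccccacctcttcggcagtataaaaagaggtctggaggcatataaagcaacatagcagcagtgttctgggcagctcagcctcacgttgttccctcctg
Pf4: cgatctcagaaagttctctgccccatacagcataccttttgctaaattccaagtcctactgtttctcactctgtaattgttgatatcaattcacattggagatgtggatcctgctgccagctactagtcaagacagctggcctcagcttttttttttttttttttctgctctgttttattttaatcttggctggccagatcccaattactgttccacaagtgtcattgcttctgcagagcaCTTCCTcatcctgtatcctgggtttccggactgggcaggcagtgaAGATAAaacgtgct
Itga2b held 2 ETS words, 125 and 43 bases upstream of the start site. Gp9 held 1 ETS word 16 bases upstream, Ppbp held 0 ETS and 0 GATA words, and Pf4 held 1 ETS word 9 bases upstream and 1 GATA word downstream of the start. Of the 6 windows of the 5 marker genes and Pf4, 4 held an ETS word, 2 a GATA word and 1 both. Over 32851 promoter windows of the same length, 46.5% held an ETS word, 18.6% a GATA word and 7.70% both. The words are a description of letters and do not show that a factor binds there.

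The members were spread unevenly over the libraries. NEJ634 held 46 of the 88, NEJ723 held 23 and NEJ687 held 12, while NEJ638, NEJ654 and NEJ677 held 2 each and NEJ709 held 1. With Itga2b left out of the markers the total was 47, with 10 in NEJ634, 19 in NEJ723 and 11 in NEJ687, so the place of NEJ634 rested on that gene. As a share of kept barcodes this was 0.190% (0.121 to 0.285) in NEJ723, 0.159% (0.0824 to 0.278) in NEJ687 and 0.113% (0.0828 to 0.151) in NEJ634, whose intervals overlap. It was 0.0353% in NEJ654, 0.0314% in NEJ638 and 0.0292% in NEJ677, and 0.00466% (0.000118 to 0.0259) in NEJ709, the only one of these 4 whose interval lies below those of the first 3.

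Depth per barcode differed, with a median of 1640 UMIs per kept barcode in NEJ634 and up to 5014 in NEJ687, while NEJ634 members had a median of 4123, and a deeper barcode reaches 4 marker UMIs more easily. With every kept barcode thinned to 1000 UMIs, 38 members were found. These were 13 in NEJ634 (0.0320%), 9 in NEJ723 (0.0743%), 9 in NEJ687 (0.0547 to 0.227%), 2 each in NEJ638, NEJ654 and NEJ677, and 1 in NEJ709. NEJ634 thus fell from 46 to 13 members, and the libraries with 1 or 2 members lost none.

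**Figure D1:**
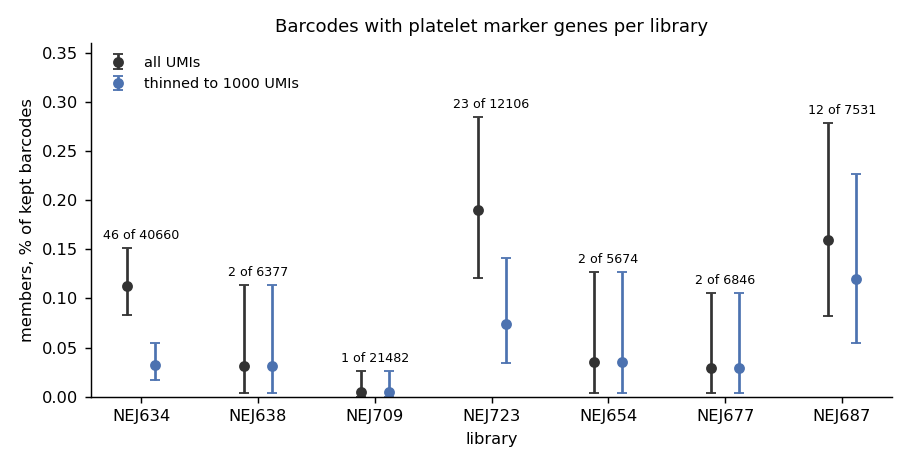
Members as a percentage of kept barcodes (vertical axis) in each of the 7 libraries (horizontal axis), with exact 95% binomial intervals, before and after thinning each barcode to 1000 UMIs. NEJ723, NEJ687 and NEJ634 sit above 0.1% before thinning, and NEJ634 drops to 0.0320% after it.

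The markers' own detection follows from the rule and does not check the label. Itga2b was detected in 74 members, Ppbp in 80, Gp9 in 66, Gp6 in 39 and Gp1bb in 29, and 70 members held at least 3 of the 5 genes. Of the other members 15 held 2 genes and 3 held a single gene. Those 3 were a NEJ634 member with 5 Itga2b UMIs, a NEJ723 member with 17 Ppbp UMIs and a NEJ723 member with 7 Ppbp UMIs that also carried macrophage genes.

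Pf4, the platelet factor 4 chemokine, was not used to choose the members. It goes with the markers that were, so its presence describes the members and is no independent support of the label. Members were set beside B-panel and T/NK-panel barcodes only. Pf4 was present in 87 of the 88 members (98.9%, 93.8 to 100), which had a median of 3509.5 UMIs. It was present in 2.36% of B-panel barcodes (median 2158 UMIs) and 2.74% of T/NK-panel barcodes (median 3048 UMIs), cells that do not make it. Thinned to 1000 UMIs, the shares were 90.9% of members, 1.11% of B-panel and 0.987% of T/NK-panel barcodes. In NEJ634 Pf4 ran from 0 to 36 UMIs per member with a median of 15, in NEJ723 from 2 to 121 with a median of 23, and in NEJ687 from 1 to 226 with a median of 56.5. The members of NEJ638 held 17 and 26 Pf4 UMIs, that of NEJ709 held 44, those of NEJ654 held 27 and 58, and those of NEJ677 held 39 and 85. The single-gene NEJ723 member with 17 Ppbp UMIs had 2 Pf4 UMIs and 0 of Ctla2a, so its marker count rested on Ppbp alone.

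Which marker carried the count also differed. In NEJ634, Itga2b supplied 287 of 502 marker UMIs (57.2%) and was seen in 46 of 46 members (1 to 15 UMIs, median 6), Ppbp supplied 25.1%, and Gp9 and Gp1bb supplied 7.37% and 0.996%. In NEJ723, Gp9 supplied 130 of 295 marker UMIs (44.1%) and Itga2b 15.9%, and in NEJ687 Ppbp supplied 45.3% and Itga2b 20.3%. Gp1bb was detected in 4 of the 46 NEJ634 members and in 25 of the 42 others, and Gp6 in 29 and 10. These genes chose the members, so their values are a description only.

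Near the limits of the rule, 6 members had a marker share of 0.15 to 0.18% and 11 had exactly 4 marker UMIs. Just outside, 11 barcodes had at least 4 marker UMIs at 0.12 to 0.15%, and 13 had 3 marker UMIs at a sufficient share. The marker genes made up 0.00105 to 0.00263% of base UMIs in all other kept barcodes and 0.00160 to 0.00391% in barcodes of 1 to 100 UMIs, which hold mostly free RNA. Of the barcode sequences, 1 NEJ634 member's was also a kept barcode in another library, and 0 were members in more than 1 library.

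The members' profiles fell apart along Malat1, a long RNA retained in the nucleus. The series' design text speaks of nuclei and the sample descriptions of cells, which bears on how every Malat1 share here can be read. For the tumor, the study's methods describe dissociated cells that were counted as single cells and loaded, and name no isolation of nuclei. In NEJ634 the median member had 8.66% of base UMIs in Malat1 (0 to 30.5%), against 0.550% in the library's other kept barcodes. In NEJ723 the median was 0.0596% against 0.492%, in NEJ687 0.115% against 0.580%, and in NEJ638, NEJ654 and NEJ677 0.0420%, 0.0824% and 0.0509% against 0.852%, 1.21% and 1.61%. The 1 member of NEJ709 had 0 Malat1 UMIs. The median member thus lay above the library's other barcodes in NEJ634 and below them in the other 6. Single members crossed that level, with 6 of 23 above it in NEJ723, 4 of 12 above it in NEJ687 and 2 of 46 below it in NEJ634.

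Detection at equal depth showed the same split. Of the 42 members outside NEJ634, 17 had no Malat1 UMI, and after thinning to 1000 UMIs 47.6% (32.0 to 63.6) had one, against 99.7% of B-panel and 99.4% of T/NK-panel barcodes of the same libraries. In NEJ634 97.8% of members had one after thinning. In that library 34 members had at least 5% of base in Malat1, a level that 0.401% of its other kept barcodes reached, and elsewhere 1 member did.

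**Figure D2:**
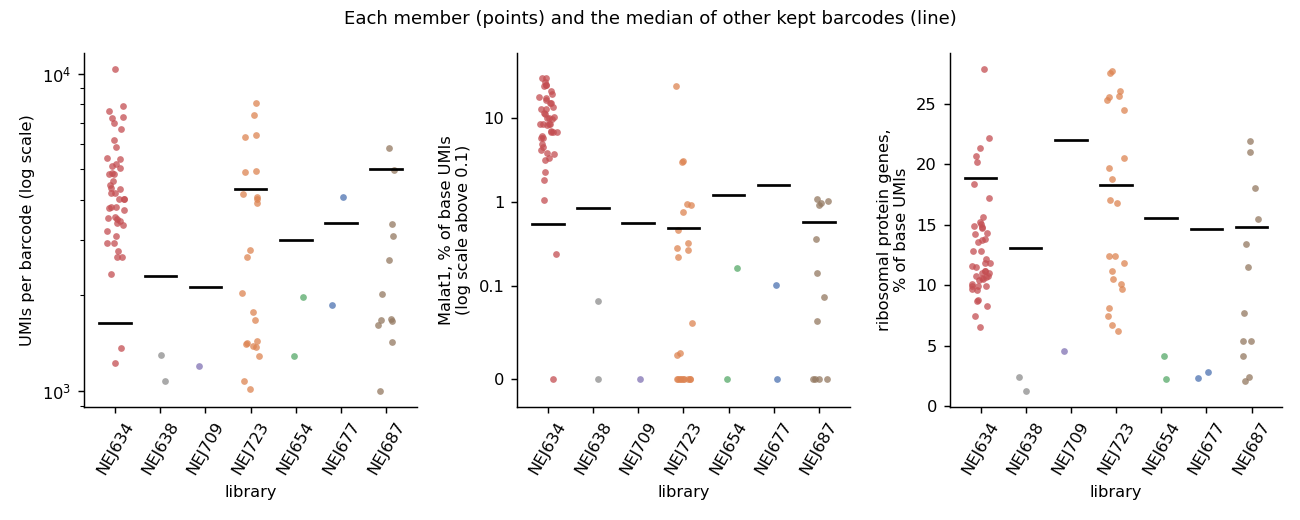
UMIs per barcode (log scale), Malat1 as a percentage of base UMIs (log scale above 0.1) and ribosomal protein genes as a percentage of base UMIs, for each member (points) by library, with the median of the library's other kept barcodes (line). Nearly all points of NEJ634 lie above its line for Malat1 (median 8.66% against 0.550%), and most points of the other libraries lie below theirs.

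After these values were seen, members with at least 1% of base in Malat1 were called Malat1-rich, those under 0.3% Malat1-poor, and those between intermediate. There were 49 Malat1-rich members, 44 in NEJ634, 3 in NEJ723 and 2 in NEJ687. The 31 Malat1-poor members were 15 in NEJ723, 7 in NEJ687, 2 each in NEJ634, NEJ638, NEJ654 and NEJ677, and 1 in NEJ709. The 8 intermediate members were 5 in NEJ723 and 3 in NEJ687. The class therefore followed the library closely.

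Members that met a panel of another cell type, defined below, were left out here. The 47 remaining Malat1-rich members had a median of 4212 UMIs (1676 to 10312) and 1547 genes. The 28 remaining Malat1-poor members had medians of 1434 UMIs (1003 to 4953) and 594.5 genes. The marker genes took a median of 0.245% of base (0.155 to 0.443) in the rich and 0.964% (0.313 to 3.11) in the poor members. The medians of the mt- share were 5.72% and 5.97%, and those of ribosomal protein genes 11.5% and 10.3%. The 5 intermediate members without such a panel lay near the rich ones in size (median 4925 UMIs, 1678 genes) with a marker share of 0.361%. A barcode with few UMIs passes the limit of 4 marker UMIs only at a high share, so part of the relation between size and share is built into the rule.

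By marker share, 66 members lay between 0.15 and 0.5%, 21 between 0.5 and 2%, and 1 at 3.11%, a NEJ638 member with 29 marker UMIs among 1074 UMIs. All 46 members of NEJ634 were in the lowest range, and all 21 members of the middle range were Malat1-poor. No Malat1-rich member had a marker share above 0.443%.

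**Figure D3:**
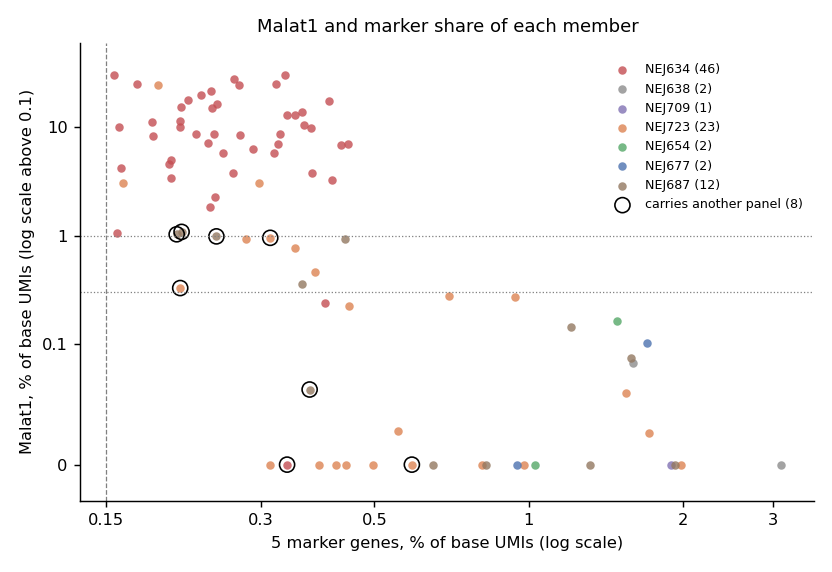
Share of base UMIs in the 5 marker genes (horizontal axis, log scale) against the share in Malat1 (vertical axis, log scale above 0.1). The 88 members are coloured by library, and the 8 that carry a panel of another cell type are ringed. NEJ634 members gather at marker shares of 0.155 to 0.443% and high Malat1, and members above 0.5% lie low in Malat1.

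The share of ribosomal protein genes also varied, and where a library had 1 or 2 members its value describes those barcodes only. Their median share in members was 1.86% in NEJ638, 2.57% in NEJ677 and 3.19% in NEJ654, against 13.1%, 14.6% and 15.5% in the other kept barcodes of these libraries, and it was 4.60% in the NEJ709 member. In NEJ687 it was 9.59% against 14.8%, and in NEJ723 16.8% against 18.3%. The 2 members of each of the 3 livers the study calls healthy had 1.29 to 4.12%, and NEJ687 members ran from 2.07 to 21.9%, so single members overlapped with those of a tumor.

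Haemoglobin RNA, left out of the base, made up at least 20% of all UMIs in 7 members of NEJ723 and 1 of NEJ687. In these libraries 55.1% and 45.3% of the other kept barcodes reached that level. The largest members by Malat1 outside NEJ634 included a NEJ723 member with 24.6% of base in Malat1 and 62.2% haemoglobin. It held 521 of the 793 Malat1 UMIs of NEJ723 members that met no panel of another cell type, as defined next.

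Genes of other cell types were counted with 13 panels of 5 genes, held to the same limits as the markers and to at least 5 times the free RNA level. Of the 88 members 8 (9.09%, 4.01 to 17.1) carried such a panel, 16 (18.2%) did with panels held to 3 times the free RNA level, and 7 of 42 (16.7%) did with NEJ634 left out. By library these were 1 of 46 in NEJ634, where 24.7% of the other kept barcodes carried a panel, 3 of 23 in NEJ723 (53.8%) and 4 of 12 in NEJ687 (66.3%). They were 1 NEJ634 member with endothelial genes, NEJ723 members with erythroid, macrophage and monocyte genes, and NEJ687 members with neutrophil genes (2), macrophage genes (1) and monocyte genes (1). Whether these barcodes hold an aggregate of cells in the liver or a droplet with a pair of cells cannot be told apart.

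Seen from the other side, members made up 2 of 3676 neutrophil-panel barcodes (0.0544%), 2 of 3983 macrophage-panel, 2 of 2714 monocyte-panel, 1 of 4460 endothelial-panel and 1 of 9708 erythroid-panel barcodes. They made up 0 of 2736 T/NK-panel barcodes, which allows a share of up to 0.110%, 0 of 3348 B-panel barcodes (up to 0.0896%) and 0 of 946 hepatocyte-panel barcodes (up to 0.317%). The neutrophil, macrophage and monocyte shares lie under these limits, so a difference between carriers was not detectable in these counts. The counts join all 7 libraries, so panel and library are mixed in them. In NEJ687 alone, 2 of 710 neutrophil-panel barcodes (0.282%) and 0 of 331 T/NK-panel barcodes (up to 0.906%) were members. After thinning to 1000 UMIs, 2 members carried a panel, a neutrophil and a macrophage one, both in NEJ687.

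The remaining 45 members of NEJ634 were chosen for carrying no panel, so low panel levels are partly fixed by that choice. Of the 13 panels, 10 stood below their level in the other kept barcodes and 3 (erythroid, B and dendritic) above it. The dendritic panel rested on 5 UMIs (27.1 against 21.1). The B panel rested on 18 UMIs (97.7 against 78.5) and lay below its free RNA level of 139.5. The macrophage panel stood at 163 UMIs per 1000000 base UMIs (base CPM) against 1636 in the other kept barcodes, the neutrophil panel at 114 against 799 and the endothelial panel at 38.0 against 360. The erythroid panel, marking the sister lineage, stood at 635 against 526, and the hepatocyte panel at 1840 against 4389 (3335 in free RNA). In the NEJ723 members without a panel the erythroid panel stood at 2140 against 2201, so these members were not free of erythroid RNA. All 5 basophil and mast cell genes (Mcpt8, Cpa3, Ms4a2, Prss34, Fcer1a) were at 0 UMIs in the members of NEJ634, NEJ723 and NEJ687.

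Levels of further genes were taken from members without another panel, summed per library, where at least 20 were present. These were 45 members of NEJ634 (184241 base UMIs) and 20 of NEJ723 (43926 base UMIs). In NEJ723 the 14 Malat1-poor members held 21032 of the base UMIs, 3 Malat1-rich members 6548 and intermediate members the rest. The member with 17 Ppbp UMIs and no other marker held 4859. NEJ723 levels thus join unlike barcodes and are not levels of Malat1-poor members alone. A gene was called higher or lower when its level in base CPM differed at least 2-fold from that of the library's other kept barcodes and the 95% intervals did not overlap. Of 23225 genes in NEJ634, 4.05% were called higher and 5.65% lower, and of 21821 in NEJ723, 1.97% and 0.834%. Of the 134 genes on the platelet and megakaryocyte lists, 69 were higher and 7 lower in NEJ634, and 50 higher and 3 lower in NEJ723. Since such genes go with the markers that chose the barcodes, these counts describe the members and are no independent support.

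A low gene can be called higher more easily than lower in so few UMIs, so the lists were also read among genes of at least 100 base CPM in the other kept barcodes. There, 27 listed genes of NEJ634 had 13 higher and 6 lower and a median log2 ratio of 0.65, against 5.43% higher, 37.5% lower and a median of -0.80 over 1493 genes. In NEJ723, 26 listed genes had 13 higher and 3 lower and a median of 0.998, against 5.62%, 13.3% and -0.50 over 1371 genes.

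Surface receptors were called higher for 15 of 19 genes in NEJ634 and 11 in NEJ723. Gp1ba, the von Willebrand factor-binding subunit that pairs with Gp1bb, stood at 630 base CPM against 1.02 in NEJ634 and at 91.1 against 0.350 in NEJ723. Gp5, its companion, stood at 733 against 1.80 and at 114 against 1.57. Itgb3, the beta chain that joins Itga2b in the fibrinogen receptor, stood at 803 against 6.58 and at 524 against 3.75. The rule did not use these 3 genes. In NEJ723 Gp1ba rested on 4 UMIs and Gp5 on 5, and in NEJ634 Gp1bb was seen in 4 of 46 members.

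Clec1b, the podoplanin receptor CLEC-2, stood at 2725 against 99.0 in NEJ634 and 956 against 11.2 in NEJ723. Treml1, an alpha granule receptor of platelets, stood at 217 against 0.999 and 820 against 1.10. Cd9, a tetraspanin abundant on platelets, stood at 1449 against 167 and 2186 against 146. Cd226, an adhesion receptor shared with lymphocytes, stood at 1010 against 5.18 in NEJ634 and had 0 UMIs in NEJ723 members. Fcer1g, the signalling chain of Gp6, was lower in NEJ634 (309 against 782) and higher in NEJ723 (2026 against 613), and Cd36 was lower in NEJ634 (27.1 against 145).

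Signalling genes were called higher for 18 of 23 genes in NEJ634 and 13 in NEJ723, and lower for none. Nrgn, a calmodulin-binding protein, stood at 2567 against 14.8 and 3938 against 20.9. Gng11, a G protein gamma subunit, stood at 1509 against 70.9 and 2026 against 18.3. Rasgrp2, which activates Rap1 ahead of integrin opening, stood at 1444 against 66.9 and 501 against 42.0, and Alox12, the platelet lipoxygenase, at 792 against 3.10 and 569 against 1.07. In NEJ723 10 of the 23 were not called and 6 had 0 UMIs. Prkg1 had 0 UMIs in both, and Plcg2 was not apart from the other barcodes with 3 UMIs in NEJ634 and 0 in NEJ723.

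Granule and secreted proteins were called higher for 12 of 19 genes in NEJ634 and 9 in NEJ723. Pf4 stood at 3930 against 79.7 in NEJ634 and 15003 against 158 in NEJ723. Thbs1 (thrombospondin) stood at 1558 against 235 and 1821 against 135, Vwf (von Willebrand factor) at 86.8 against 6.60 and 455 against 7.74, and Mmrn1 (multimerin) at 152 against 0.732 and 45.5 (2 UMIs) against 0.317. Pf4 and Vwf stood at the higher level in NEJ723. Of the list, 5 genes in NEJ634 and 10 in NEJ723 were not called. Sparc and Igf1, which liver stroma and hepatic cells also make, were lower in NEJ634 (5.43 against 221, a single UMI, and 10.9 against 113).

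Cytoskeleton genes were called higher for 10 of 14 in each library, and lower for 1 in NEJ634 and 0 in NEJ723. Tubb1, the beta tubulin of the platelet's marginal band, stood at 570 against 0.732 in NEJ634 and 68.3 (3 UMIs) against 0.233 in NEJ723. Myl9, a myosin light chain, stood at 385 against 5.31 and 3551 against 7.06. Tln1 (talin), the integrin activator, stood at 1080 against 253 and 911 against 190. Tubb1 and Myl9 lay in opposite order in the 2 libraries, Tubb1 higher in NEJ634 and Myl9 higher in NEJ723.

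Of 16 transcription factors 8 were called higher in NEJ634 and 2 (Runx1 and Mef2c) in NEJ723. Gata1, which drives the megakaryocyte and erythroid program, stood at 185 against 11.7 in NEJ634 (73.5 in erythroid-panel barcodes) and had 0 UMIs in NEJ723 members. Gata2, an earlier factor of the same family, stood at 613 against 5.57 (164 in basophil and mast barcodes) in NEJ634 and at 1 UMI in NEJ723. Nfe2, required for platelet release, stood at 440 against 29.0 in NEJ634 (149 in erythroid-panel barcodes) and 68.3 against 66.8 in NEJ723. Fli1, an ETS factor of the lineage, stood at 261 against 47.1 and at 1 UMI, and Runx1 at 103 against 44.3 and 159 against 46.2. In NEJ723 the counts of Gata2, Nfe2 and Fli1 were 1 to 3 UMIs, too few to place them apart from the other barcodes.

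Of 10 genes of stem and progenitor cells, 3 had 0 UMIs in members of NEJ634 and 5 in members of NEJ723. Kit, Hoxa9 and Mecom had 0 UMIs in members of NEJ634 and NEJ723, and Cd34 had 1 and 0. Slamf1 (CD150), which marks stem cells and megakaryocyte-biased precursors, was higher in both (141 against 1.74 and 45.5 against 1.35, the latter from 2 UMIs). Myct1 was higher in NEJ634 (885 against 16.6) and Spi1, a myeloid factor, was lower there (38.0 against 130).

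Of 20 cell cycle genes 0 were called higher in NEJ634 and 1 lower (Ccnd2). Mki67, the proliferation marker, stood at 575 against 409 and Top2a (topoisomerase) at 228 against 210, and Mki67 UMIs were seen in 37 of the 46 NEJ634 members with a median of 2. In NEJ723 Mki67 (182 against 578), Cdk1 (22.8 against 143, a single UMI) and Pcna (91.1 against 266) were lower, and Ccne2 (cyclin E2) was higher at 250 against 40.5. Of the mitotic kinases in NEJ634, Plk1 had 1 UMI, Aurka 2 and Aurkb 3, and the 19 genes other than Ccnd2 were not called.

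Of genes that act downstream of thrombopoietin, Sh2b3, an adaptor that restrains cytokine signalling, stood at 141 against 21.1 and Stat5b, a transcription factor of cytokine signalling, at 163 against 27.2 in NEJ634, and both were called higher. In NEJ723 Jak2, a cytokine receptor kinase, was called higher at 137 against 35.3, and Socs1, a feedback inhibitor of cytokine signalling, at 68.3 (3 UMIs) against 11.1. In each library 9 genes of this list were not called. Thpo, which encodes the hormone itself, had 0 UMIs in members of both.

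Both nuclear RNAs were higher in NEJ634. Malat1 stood at 142004 base CPM against 7713, and Neat1, the scaffold of paraspeckles, at 1916 against 384. In NEJ723 Malat1 was called higher (18053 against 8980), but that call rested on the member with 521 Malat1 UMIs. Without it the level was 6506, a log2 ratio of -0.46 that was not called.

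**Figure D4:**
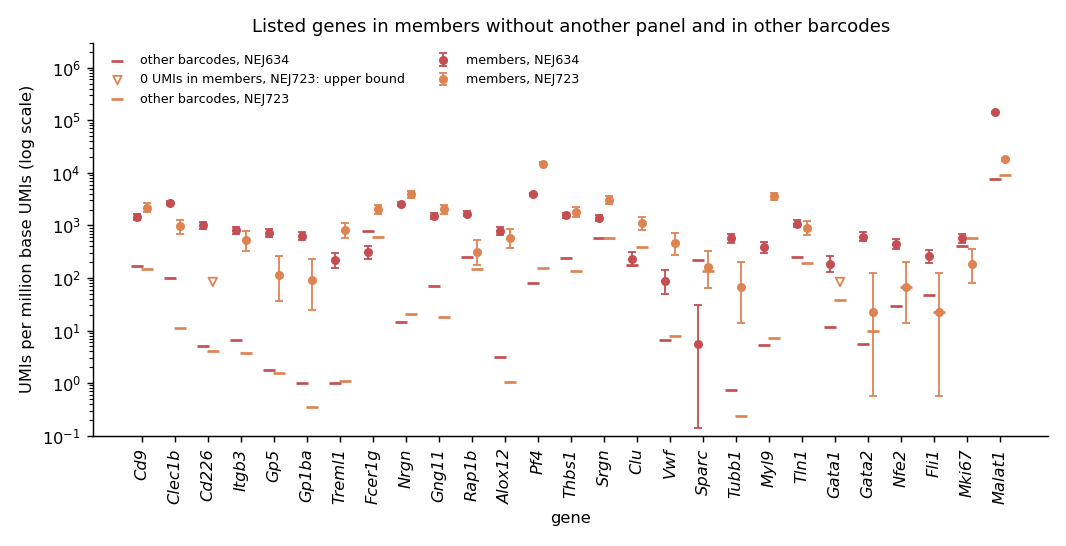
UMIs per 1000000 base UMIs (log scale) of listed genes in members without another panel (points with exact 95% Poisson intervals) and in other kept barcodes (dashes) of NEJ634 and NEJ723, with triangles at the upper bound where members had 0 UMIs. Pf4, Nrgn and Myl9 stand far above the dashes in both libraries, and Gata1 and Cd226 have points in NEJ634 alone.

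Outside the lists, the 15 genes with the highest median log2 ratio over both libraries included several with known roles in this lineage. Slc6a4, the serotonin transporter that loads platelets, stood at 478 against 0.708 in NEJ634 and 68.3 (3 UMIs) against 0.167 in NEJ723. Mpig6b, an inhibitory receptor of megakaryocytes and platelets, stood at 92.3 against 0.290 in NEJ634 and at 137 (6 UMIs) in NEJ723, where all other kept barcodes held 15 UMIs, and Gnaz, a platelet G protein alpha subunit, at 114 against 0.952 in NEJ634 with 0 UMIs in NEJ723. Ctla2a, a cathepsin inhibitor, had the largest count, at 15800 against 96.1 and 20330 against 88.7. It was seen in 85 of the 88 members, but T/NK-panel barcodes also carried it (43.5%, against 3.61% of B-panel barcodes), so it is not specific to this lineage.

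The other 11 were Npas4, Lancl3, Arhgap28, Lrrn3, Plxna4, Dlg2, Ltbp1, Ccdc92, Npy, Cass4 and the non-coding AI504432. Npas4, a neuronal activity factor, had 26 UMIs in NEJ634 (141 against 0.105). AI504432 stood at 1721 against 5.69 in NEJ634. In NEJ723, Npas4, Arhgap28, Dlg2, Ltbp1, Cass4 and AI504432 had 0 UMIs, where 3 UMIs would be 68.3 base CPM. The NEJ723 ratios of these genes and of Gnaz came from setting 0 to 3 UMIs. Their rank over both libraries rests in part on that setting.

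The 5 genes with the widest range between the members of the libraries were Tubb2a, Ccl2, Npy, H19 and Apoa4. Tubb2a, a beta tubulin, stood at 4554 base CPM in NEJ634 and 45.5 (2 UMIs) in NEJ723, with 64.5 and 54.0 in the other kept barcodes, so the other barcodes did not differ as the members did. Npy, a peptide reported in rodent megakaryocytes, stood the other way, at 797 (555 to 1108) in NEJ723 and 10.9 (2 UMIs) in NEJ634. Ccl2 stood at 410 in NEJ723 and at 5.43 (1 UMI) in NEJ634. H19 stood at 1428 in NEJ634 and 22.8 in NEJ723, and the other kept barcodes differed in the same order (3221 and 48.6). Apoa4 stood at 5.43 (1 UMI) in NEJ634 against 95.1 in the other kept barcodes, and at 273 (141 to 477) against 322 in NEJ723.

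Malat1-rich and Malat1-poor members were then set side by side, using the 44 rich members of NEJ634 (182991 base UMIs) and the 27 poor members of the other 6 libraries (47096 base UMIs) without another panel. Under 20 poor members lay in any 1 library, so nuclear RNA and library cannot be told apart in these values. Of 10181 genes, 2.74% were higher and 2.16% lower in the rich members. Of the 134 listed genes 11 were higher and 34 lower. Among genes of at least 100 base CPM in the kept non-members of all 7 libraries, 32 listed genes had 5 higher and 17 lower and a median log2 ratio of -1.22, against 8.67%, 8.13% and 0.24 over 1464 genes.

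The lower genes lay mostly on the lists of the platelet's working parts, with 10 of 14 cytoskeleton, 9 of 19 granule, 7 of 19 receptor and 7 of 23 signalling genes. The small poor members pass the rule only at a high marker share, so lower platelet genes in the rich members are partly built into the choice. Pf4 stood at 3907 base CPM in the rich and 30533 in the poor members (7.81 times lower, 7.14 to 8.56). Myl9 stood at 377 against 4862 (12.9 times lower, 9.81 to 17.1), Rgs10, a G protein regulator, at 131 against 2357 (11.5 to 29.2 times lower), and Treml1 at 219 against 1847. Gng11 (1519 against 7092), Nrgn (2585 against 7071), Cd9 (1448 against 5945), Vwf (87.4 against 977) and Clu (clusterin, 219 against 1784) were lower too.

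Of the 11 higher genes, Malat1 (142958 against 403) defined the sets and had to differ. The other 10 included Neat1, with 353 UMIs against 0. Its ratio was 30.3 with 0 set to 3 UMIs, and the exact interval of the ratio began at 24.5. They also held 3 of 16 transcription factors (Gata2, Lyl1 and Nfe2) and 3 of 20 cell cycle genes (Mki67, Top2a and Pcna). The rest were Myct1, Nbeal2 from the granule list and Gp1ba from the receptor list. Gata2 stood at 618 against 42.5, with 2 UMIs in the poor members and a ratio of 14.5 (3.93 to 121). Mki67 stood at 579 against 63.7, with 3 UMIs and a ratio of 9.09 (3.03 to 44.8), and Nfe2 at 443 against 127 (ratio 3.47, 1.53 to 9.75). Gp1ba (633.9 against 297) was the single receptor on this side. With the poor members of NEJ723 left out, 13 poor members remained, and 4 listed genes were higher (Neat1, Gata2, Mki67 and the defining Malat1) and 37 lower. Nfe2, Lyl1, Top2a, Pcna, Myct1, Nbeal2 and Gp1ba were then no longer called, which left 1 transcription factor and 1 cell cycle gene, and Gp1ba also lost its call with NEJ687 left out.

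Other platelet genes were not called. Tubb1 stood at 574 against 637 (ratio 0.901, 0.595 to 1.40), Gp6 at 251 against 255, Rap1b, the small GTPase of integrin activation, at 1672 against 1911 (ratio 0.875, 0.690 to 1.12), Rasgrp2 at 1454 against 1529, and Clec1b at 2738 against 3631 (ratio 0.754, 0.633 to 0.902), an interval that leaves out equality while the ratio misses the 2-fold limit. The Tubb1 level of the poor members joins unlike libraries. Over all members, Tubb1 was seen in 3 of 23 in NEJ723 and in 6 of 12 in NEJ687. Gata1 stood at 186 against 84.9 (4 UMIs), a ratio of 2.19 (0.780 to 8.49) that did not separate the sets. Of the 134 listed genes 89 were not called. Of the markers in the rule, Gp9 (180 against 3610), Ppbp (678 against 4544) and Gp1bb (27.3 against 807) were lower and Itga2b (1558 against 2378) was not called.

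**Figure D5:**
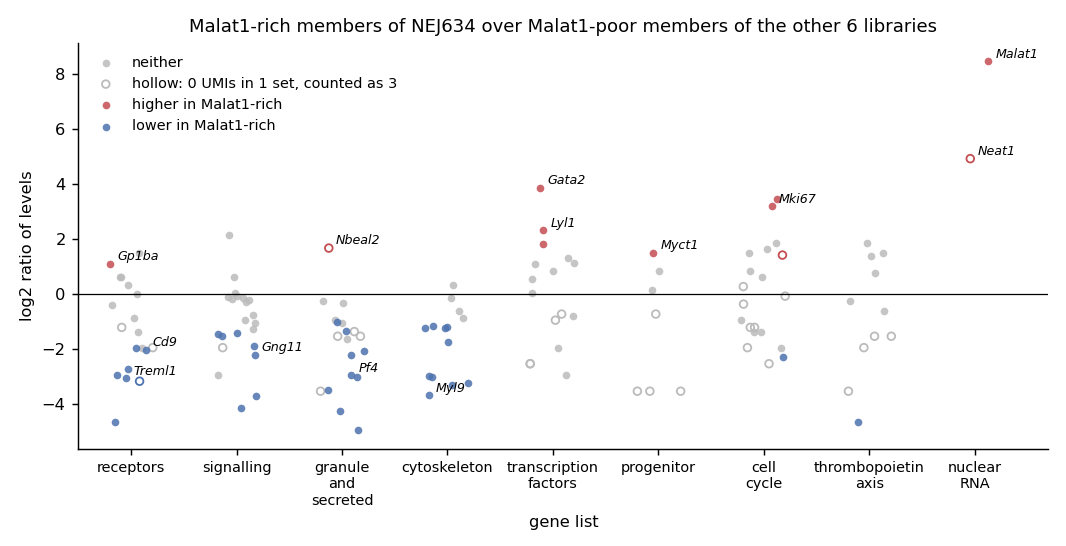
Log2 ratio of the level in 44 Malat1-rich members of NEJ634 over that in 27 Malat1-poor members of the other 6 libraries (vertical axis) for the genes of each list (horizontal axis), with hollow points where 1 set had 0 UMIs, counted as 3. Genes called lower lie mostly on the receptor, signalling, granule and cytoskeleton lists, and Gata2, Lyl1, Nfe2 and Mki67 lie above 0.

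A few genes off the lists were chosen after their values were seen. Tmsb4x (thymosin beta 4, the actin-binding peptide abundant in platelets) stood at 17990 in the rich and 82491 in the poor members, and Myl6, a myosin light chain, at 863 and 10022. Itga6, a laminin receptor chain, stood the other way at 3153 and 552.

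Genes of other cells and a sign of RNA quality moved with this comparison. Of the 13 panels, the monocyte panel (295 against 21.2) and the hepatocyte panel (1820 against 1104) were higher in the rich members with intervals apart, 0 were lower, and the intervals of the other 11 overlapped. The free RNA of NEJ634 held the hepatocyte panel at 3335 and the monocyte panel at 328. Among single genes chosen after their values were seen, S100a8, a neutrophil gene, stood at 891 against 255 (13925 in the free RNA of NEJ634), Igf2 at 689 against 276, Apob at 312 against 63.7 (3 UMIs) and Rhd, an erythroid gene, at 25 UMIs against 0. The erythroid panel, which includes Rhd, stood at 639 against 637 with overlapping intervals, so Rhd does not speak for its panel. Gm42418, which overlaps ribosomal RNA sequence, took 28351 base CPM in the rich and 94191 in the poor members. The part of these differences in the levels of platelet genes was not tested.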

How the data were processed

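Each of the 7 libraries was made with a droplet 3′ kit and deposited as a matrix of raw counts, that is UMIs per gene (32285 genes) and barcode, with no cell filter. The authors' labels name Cell Ranger 6.0 and the file headers Cell Ranger 4, and the genome build of the counts is not given in the sources used here. The total counts, 40214395 to 132485391 UMIs per library, set the precision.

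Barcodes, base and members were taken as stated in the report, and levels were summed UMIs per 1000000 base UMIs. No doublet caller was run, since droplets with a platelet beside another cell were themselves of interest. Free RNA was taken from barcodes of 1 to 100 UMIs. The members and gene lists were chosen with earlier results of these data known. The ranges of Malat1 and the comparison of rich with poor members were chosen after their values were seen. The genes named are the markers, Pf4, about 4 genes per list with high or low ratios, the 15 genes off the lists with the highest median log2 ratio (at least 20 UMIs, 0 UMIs set to 3) and the 5 with the widest range between libraries (at least 100 per 1000000 in 1 library).

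The labels gave 0 groups, so no test was made. Alternatives changed the limits on UMIs, mt- share and markers, the panels, the base, the weighting of barcodes, free RNA and the libraries used. 1 listed gene is not reported here. The steps were tested on simulated data. Promoter windows came from RefSeq, and all 6 genes were matched by symbol. Python 3.11.15, numpy 2.4.6, scipy 1.17.1, pandas 2.3.3 and matplotlib 3.10.9 were used.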

Additional observations from a re-analysis of the deposited data

Results flagged for a closer look

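Barcodes of 100 to 1000 UMIs were not used in the report, and among 282880 of them 81 met the same marker limits, 37 in NEJ723, 31 in NEJ687 and 13 in the other 5 libraries. The remaining libraries held 5 (NEJ654), 3 (NEJ634), 3 (NEJ677), 2 (NEJ709) and 0 (NEJ638). NEJ638 had only 1204 such barcodes, against 17910 in NEJ709 and 50363 in NEJ723, and its exact interval reached 0.306%. Without the mt- limit NEJ638 had 69178, of which 2 met the marker limits, so the 0 does not show an absence. These barcodes are shallow, with medians of 324 to 785 UMIs, and Malat1 made up 0.0701% of their base UMIs in NEJ723 and 0.122% in NEJ687, against 0.207% and 0.375% in the other barcodes of that size.

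In NEJ687 these 31 barcodes had Pf4 at 36593 per 1000000 base UMIs (33286 to 40140), against 197 in free RNA and 100 in the library's kept non-members. Clec1b stood at 3097 against 80.9 in free RNA, Cd9 at 7009 against 152 and Myl9 at 7091 against 15.9, and Malat1 at 1223 (684 to 2016) against 3380 in free RNA. In NEJ723 the 37 barcodes had Pf4 at 20687 (18806 to 22707) against 209 in free RNA, Ctla2a at 23536 against 139 and Malat1 at 701 (392 to 1155) against 6836. The platelet genes named here were thus above and Malat1 below the free RNA in both. Some other listed genes were not seen above it, such as Cd36, Nbeal2 and Selp with 0 UMIs in NEJ723. Gm42418, which overlaps ribosomal RNA sequence, stood at 248015 against 77756 in free RNA in NEJ723. In NEJ687 Gm42418 stood at 66993 against 34231.5. It takes up part of the base, and its effect on these levels was not tested. Gata1 had 0 UMIs in NEJ723 and 2 in NEJ687.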

How the results depend on the processing

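The number of members moved with the limits: from 88 to 139 with over 500 UMIs per barcode, of which 56 lay in NEJ723, 51 with a marker share of at least 0.3%, 47 with Itga2b left out of the markers (10 in NEJ634, from 46), 38 with each barcode thinned to 1000 UMIs and 42 with NEJ634 left out. Under the other alternatives it ran from 63 to 92. The share of members with another panel was 18.2% with panels at 3 times the free RNA level and 4.35% to 16.7% otherwise, and after thinning 2 members carried a panel, from 8. Without NEJ634, 20 members had a marker share of 0.15 to 0.5%, from 66. Without NEJ723 and NEJ687, 13 low-UMI barcodes met the marker limits, from 81. In NEJ634 12 listed genes were lower with the mean over barcodes, from 7. Of listed genes higher in Malat1-rich members, 4 remained called with NEJ723 left out, from 11. The Malat1 ratio of NEJ723 changed sign, to a log2 value of -0.46, without the member that held most Malat1 UMIs, and was 0.21 with the mean over barcodes. With Malat1 left out of the base, 29 listed genes were lower in Malat1-rich members, from 34. Of 99 log2 ratios recomputed 726 times, 667 stayed within their counting interval, 58 moved and 1 changed sign. Levels at a marker share of at least 0.5% could not be given for NEJ634 and NEJ723, since too few barcodes were left. No paired analysis was possible because the labels give no groups or replicate numbers. Libraries with 1 or 2 members allow no statement on levels, and counts of 1 to 3 UMIs place few genes. The cause of these shifts was not tested.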

Other observations

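Outside the members, low levels of the 5 marker genes were unevenly spread over cell types. In barcodes with the basophil and mast cell panel that were not members, the markers made up 0.00773% of base in NEJ634 (33 UMIs), 0.0166% in NEJ723 (60 UMIs) and 0.0157% in NEJ687 (51 UMIs). In endothelial-panel barcodes they made up 0.00429%, 0.0126% and 0.00452%, and in B-panel barcodes 0.000209%, 0.000271% and 0%, from 1, 5 and 0 UMIs. Itga2b stood at 65.6 per 1000000 base UMIs in the basophil and mast barcodes of NEJ634 and at 163 in those of NEJ723, against 7.57 and 6.87 in all kept non-members. Most marker UMIs of the basophil and mast barcodes in these 2 libraries were thus of Itga2b, not of the 5 genes alike. These shares lie far below the 0.15% that members need, and the part of free RNA and attached platelets in them was not tested.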
